A study of Mus musculus with 57 samples.

Results

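Acute phase proteins are plasma proteins whose hepatic output shifts during inflammation or tissue injury, and 10 of their genes were followed in the livers of mice given 1 of 7 hepatotoxic agents. The genes were Saa1, Saa2, Saa3, Lcn2, Orm1, Orm2, Orm3, Hp, Serpina3n and Apcs. They were chosen by symbol, each matched a single Ensembl ID, and they are 10 of the 54307 genes in the deposited table. All 10 passed the filter on low values in every comparison made. Bulk RNA-seq was available for 57 livers of wild-type male C57BL/6JJcl mice, taken 24 h after administration. The mice were 6 weeks old, had been acclimatised for 1 week and were fasted for 12 h before dosing.

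Gavage was used for 4 mice given alpha-naphthyl isothiocyanate (ANIT), for 6 given acetaminophen (APAP), for 7 given 4,4'-methylene dianiline (MDA) and for 5 given thioacetamide (TAA). Their control was 0.5% methylcellulose by gavage (Ctrl, 13 mice). Carbon tetrachloride (CCl4, 7 mice) and galactosamine (GAL, 4 mice) were compared with 2 mice given saline into the peritoneum (CIP). The lectin concanavalin A (ConA, 7 mice) was compared with 2 mice given saline into the tail vein (CIV). The protocol also names corn oil as a vehicle, and no corn oil control was analysed here, so the effects of an agent given in oil and of the oil cannot be told apart. The amount of each agent is not given in the labels. Mice are named by the number in their label, and p-values weigh a difference between groups against the spread between these mice.

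In the acute phase response, macrophages and other cells release interleukin 1, tumour necrosis factor and cytokines of the interleukin 6 family, which includes oncostatin M and leukaemia inhibitory factor. Hepatocytes read the interleukin 6 family through receptors that share the gp130 subunit and activate STAT3, while interleukin 1 acts through NF-kB, and C/EBP factors act beside both. SOCS3 is a feedback inhibitor of the gp130 and STAT3 branch. Serum amyloid A proteins are carried on high-density lipoprotein, and mouse Saa3 is known from macrophages and other cells outside the hepatocyte as well as from the inflamed liver.

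Estimated counts per library summed to between 13826343 and 35075809, with a median of 21532116. The share from mitochondrial genes ran from 5.11% to 39.3%. It was 14.6% to 39.3% in the ConA livers and 6.79% and 25.4% in their controls, and its part in the ConA results was not tested. Levels are given in CPM, the estimated counts scaled by TMM and brought to a common total. The deposited values behaved as if corrected for gene length, which no label states, so that comparisons of level between genes rest on that reading. Several mice stood apart in these genes. APAP mouse 1 had the highest level of its group in 9 of the 10 genes, MDA mouse 12 in 7, GAL mouse 2 in 9 and Ctrl mouse 18 in 8, while ANIT mouse 1 had the lowest in 8 and MDA mouse 1 in 7. Where leaving out one of these mice changed a call of the 10 genes against the route vehicle, the value without it is given. Saa1 and Saa2 shared 46.8% and 44.5% of their 31-base words with other transcripts, almost all with each other. The shares were 27.5% for Orm1, 34.1% for Orm2, 9.42% for Orm3 and 21.6% for Serpina3n, so the division of reads within these families is uncertain.

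The stretch of 250 bases before the RefSeq start was read for 8 of the 10 genes from the RefSeq promoter table of build GRCm38.p6. Orm1 and Hp had no entry. Saa1 and Saa2 are shown because their levels moved almost as one, Saa3 because it differed from them, Orm2 and Orm3 because they are near copies, and Apcs because it alone lacked the first motif. Capitals mark TTNNGNAA, a C/EBP type pattern, in the first 5 sequences and TTCNNNGAA, a STAT type pattern, in the last, each searched on both strands. All are written 5′ to 3′ on the strand of the gene.
Saa1, chr7:46742981-46743230, minus strand: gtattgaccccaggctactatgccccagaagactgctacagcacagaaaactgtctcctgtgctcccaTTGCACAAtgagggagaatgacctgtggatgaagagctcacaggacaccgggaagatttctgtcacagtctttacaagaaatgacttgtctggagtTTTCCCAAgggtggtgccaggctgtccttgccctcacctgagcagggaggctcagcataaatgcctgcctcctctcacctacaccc
Saa2, chr7:46751583-46751832, plus strand: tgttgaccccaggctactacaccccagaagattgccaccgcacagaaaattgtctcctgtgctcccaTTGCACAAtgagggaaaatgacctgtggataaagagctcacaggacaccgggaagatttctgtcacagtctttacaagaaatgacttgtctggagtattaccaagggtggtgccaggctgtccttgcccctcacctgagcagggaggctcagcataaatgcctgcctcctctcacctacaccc
Saa3, chr7:46715677-46715926, minus strand: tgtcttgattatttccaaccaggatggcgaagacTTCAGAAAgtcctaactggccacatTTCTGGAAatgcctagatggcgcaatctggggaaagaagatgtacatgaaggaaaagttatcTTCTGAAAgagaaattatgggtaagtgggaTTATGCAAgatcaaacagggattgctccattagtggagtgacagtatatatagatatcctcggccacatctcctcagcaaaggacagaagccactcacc
Orm2, chr4:63362199-63362448, plus strand: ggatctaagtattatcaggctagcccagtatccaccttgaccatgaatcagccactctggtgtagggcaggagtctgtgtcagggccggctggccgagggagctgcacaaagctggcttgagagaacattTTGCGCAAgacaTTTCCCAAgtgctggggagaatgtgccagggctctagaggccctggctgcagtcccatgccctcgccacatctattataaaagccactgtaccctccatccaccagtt
Orm3, chr4:63355908-63356157, plus strand: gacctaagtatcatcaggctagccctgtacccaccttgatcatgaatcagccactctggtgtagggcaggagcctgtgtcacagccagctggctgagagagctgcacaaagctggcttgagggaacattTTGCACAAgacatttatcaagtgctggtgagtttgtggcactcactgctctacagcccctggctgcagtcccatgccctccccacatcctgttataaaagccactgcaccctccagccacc
Apcs, chr1:172895055-172895304, minus strand: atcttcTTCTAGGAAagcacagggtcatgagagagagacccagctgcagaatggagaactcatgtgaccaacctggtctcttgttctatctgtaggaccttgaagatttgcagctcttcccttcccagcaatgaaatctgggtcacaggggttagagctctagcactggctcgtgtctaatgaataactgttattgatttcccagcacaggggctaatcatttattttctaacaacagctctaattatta

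TTNNGNAA was present in 7 of the 8 windows, against 36.8% of all 32851 RefSeq windows of the same length. TTCNNNGAA was present in 1 of the 8, against 7.02% of all windows. An NF-kB type pattern, GGGA followed by any 4 bases and CC, was present in 1 of the 8, that of Serpina3n, against 17.6% of all. The Saa1 and Saa2 windows were 94.8% identical and those of Orm2 and Orm3 85.9%, while Saa3 was 52.2% identical to Saa1. Saa3 held 4 matches to TTNNGNAA, Saa1 and Orm2 held 2 each, and Saa2 and Orm3 held 1 each. Letter matches describe these windows and do not mark bound sites.

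The acute phase genes split the 7 agents into groups. ConA raised all 10, by log2 fold changes from 1.96 (Apcs) to 7.84 (Lcn2). ANIT, APAP and MDA raised 9, 9 and 10 of them. TAA raised Lcn2 and Serpina3n and lowered Orm3, and CCl4 raised Saa1, Saa2, Saa3, Lcn2 and Orm2. GAL lowered 9 of the 10. Without APAP mouse 1 the APAP calls numbered 5, and with either CIP mouse left out the GAL calls numbered 4. With 1 mouse left out, the GAL call of Saa3 was kept in 2 of 6 fits, and those of Orm2 and Serpina3n in 1 of 6 each. The CCl4 calls depended on the fit: in a joint fit of all 57 samples none of the 5 was called (Saa1 2.12, adjusted p = 0.206, and Lcn2 2.77, adjusted p = 0.12). In that fit GAL kept 5 calls and the TAA call of Orm3 was lost (adjusted p = 0.209). Orm3 in APAP was called higher there (1.23, adjusted p = 0.0139), so that all 10 genes were called in APAP. Calls are edgeR quasi-likelihood tests with a Benjamini-Hochberg adjusted p under 0.05 over all genes, and the share of all tested genes called in the same direction was 14% for ANIT, 17.3% for APAP, 17.4% for MDA, 26.4% for TAA, 18% for CCl4 and 16.8% for ConA. For lower genes the share was 15.7% for GAL and 24% for TAA. The median log2 fold change of the 10 genes was 4.01 for ConA, 2.44 for ANIT, 2.22 for APAP, 2.02 for MDA, 0.77 for CCl4, 0.07 for TAA and -2.11 for GAL. Over all tested genes the medians lay between -0.01 and 0.10. Every mouse of the group was above every mouse of its control in 5 of the 10 genes for ANIT, 2 for APAP, 2 for MDA, 2 for TAA, 5 for CCl4 and 10 for ConA, against 4.07%, 2.09%, 1.76%, 10%, 21.2% and 18.7% of all genes. With 2 controls such separation is frequent, so the CCl4 count says little. The comparisons of the 4 gavage agents share their 13 controls, and those of CCl4 and GAL share their 2 controls.

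**Figure D1:**
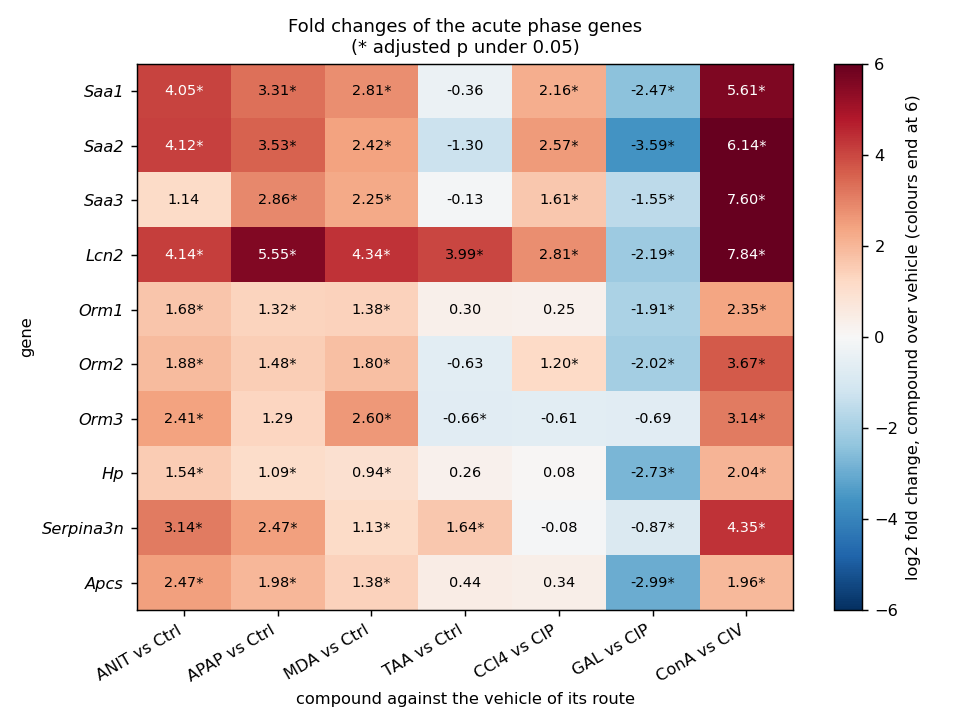
Log2 fold change of each acute phase gene (rows) in each agent against the vehicle of its route (columns), from edgeR, with an asterisk where the adjusted p was under 0.05. The ConA column runs from 1.96 to 7.84 with every cell marked, and the GAL column runs from -0.69 to -3.59 with only Orm3 unmarked.

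Against all 17 vehicle mice together, the genes called higher numbered 9 for ANIT, 10 for APAP, 10 for MDA, 2 for TAA, 6 for CCl4 and 10 for ConA. All 10 were called lower for GAL. The shares of all tested genes called higher were 13.5%, 18.1%, 17.2%, 25.2%, 26.2% and 34.3% in that order of agents, and the share called lower for GAL was 27.5%. Every treated mouse was above all 17 in 5 genes for ANIT, 2 for APAP, 2 for MDA, 2 for TAA and 10 for ConA, against 3.06%, 1.7%, 1.4%, 8.69% and 11.9% of all genes. For CCl4 this held in 0 of the 10 genes, although 6 were called higher. Every GAL mouse was below all 17 in 4 genes, against 14% of all genes. With these controls CCl4 also lowered Orm3 by 0.76 (SE 0.20, adjusted p = 0.00273) and Serpina3n by 0.32 (SE 0.12, adjusted p = 0.0334), and TAA again lowered Orm3. Both of these CCl4 calls ended under library total scaling, where Orm3 was at -0.22 (adjusted p = 0.404) and Serpina3n at 0.19 (adjusted p = 0.254), while Hp (0.68, adjusted p = 0.00447) and Apcs (0.86, adjusted p = 7.3e-05) became called higher. They also ended with the replicate block, at -0.68 (adjusted p = 0.118) and -0.29 (adjusted p = 0.0919). The TAA call of Orm3 ended under library total scaling at -0.64 (adjusted p = 0.054), and so did the APAP call of Orm3, at 1.06 (adjusted p = 0.0619). That scaling also ended 6 of the 10 GAL calls, those of Saa1 (-1.55, adjusted p = 0.0753), Saa3 (adjusted p = 0.104), Lcn2 (-2.17, adjusted p = 0.0604), Orm2 (-1.03, adjusted p = 0.107), Serpina3n (-0.23, adjusted p = 0.346) and Orm3, which turned to 0.05 (adjusted p = 0.906). The share called lower was 27.2% for CCl4 and 24.5% for TAA.

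Serum amyloid A was measured as Saa1, Saa2 and Saa3. Saa1 in the gavage vehicle mice lay between 73.4 and 2245 CPM with a median of 214. The CIP mice had 248 and 661 CPM and the CIV mice 401 and 309 CPM. Ctrl mouse 18, at 2245 CPM, lay far above the next vehicle mouse at 674 CPM. In the ConA mice Saa1 ran from 8596 to 21017 CPM, with a median of 18950. The log2 fold change was 5.61 (SE 0.48, adjusted p = 4.91e-05), and every ConA mouse was above all 17 vehicle mice.

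The ANIT mice had 770, 5753, 12152 and 8014 CPM of Saa1, so that mouse 1 lay within the range of the vehicle mice and the other 3 above it. The log2 fold change was 4.05 (SE 0.68, adjusted p = 0.000311). MDA ran from 380 to 9566 CPM with a median of 1970, and 3 of its 7 mice were above every gavage vehicle mouse. Its log2 fold change was 2.81 (SE 0.63, adjusted p = 0.00157), and 2.03 without mouse 12, the highest. CCl4 ran from 1316 to 2941 CPM with a median of 1895, above both CIP mice in all 7, and rose by 2.16 (SE 0.42, adjusted p = 0.00375).

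TAA left Saa1 at 548, 246, 238, 252 and 229 CPM. These values lay inside the vehicle range, and the log2 fold change was -0.36 (SE 0.64, adjusted p = 0.667). The sign rested on Ctrl mouse 18, without which the value was 0.34, and the other fits that left out 1 mouse reached -0.70. GAL mice had 133, 75.3, 89.2 and 26.5 CPM, all below both CIP mice. That decrease was -2.47 on the log2 scale (SE 0.60, adjusted p = 0.027). It was called in 2 of the 6 fits that left out 1 mouse, with values from -2.97 to -1.68.

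Saa2 followed Saa1 across the livers, with a Pearson r of 0.99 of log2(CPM + 1) over the 57 samples, a description that spans all groups. The Saa2 level was 0.372 of the Saa1 level at the median of the gavage vehicle mice. The median ratio was 0.883 in ConA, 0.639 in ANIT, 0.607 in APAP, 0.470 in CCl4, 0.382 in MDA, 0.275 in TAA and 0.170 in GAL. The CIV mice had ratios of 0.418 and 0.774 and the gavage vehicle mice 0.200 to 0.909, so that the ConA median lay inside the vehicle range. The division of reads between these near copies limits the ratio. Their sum changed by 5.84 for ConA (SE 0.48), 4.08 for ANIT (SE 0.77), 3.40 for APAP (SE 0.82), 2.67 for MDA (SE 0.70), 2.28 for CCl4 (SE 0.45), -0.67 for TAA (SE 0.74) and -2.70 for GAL (SE 0.59), all as log2. TAA alone was not called for the sum (adjusted p = 0.48). The APAP sum includes mouse 1, without which Saa1 was at 1.66 and Saa2 at 1.52, neither called.

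Saa2 itself ran from 19.9 to 2039 CPM in the gavage vehicle mice, with a median of 68.2. The CIV mice had 310 and 129 CPM, and ConA mice had 9102 to 18565 with a median of 15282. ConA thus raised Saa2 by 6.14 (SE 0.54, adjusted p = 5.31e-05). In GAL livers it fell to 24.1, 9.96, 14.2 and 6.45 CPM, against 96.0 and 237 in the CIP mice. The decrease of -3.59 (SE 0.55, adjusted p = 0.00652) was called in all 6 fits that left out 1 mouse. The MDA rise of 2.42 (SE 0.85, adjusted p = 0.0321) fell to 1.26 without MDA mouse 12 and was then not called. Under library total scaling it was 2.37 and not called (adjusted p = 0.0519).

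Saa3 behaved differently from its 2 neighbours. In the gavage vehicle mice it ran from 9.29 to 104 CPM with a median of 18.7, and the CIV mice had 24.1 and 18.6 CPM. ConA mice had 1819 to 6445 CPM, a log2 fold change of 7.60 (SE 0.68, adjusted p = 5.91e-05). No treated mouse outside the ConA group exceeded 218 CPM other than APAP mouse 1. Of 9 macrophage and monocyte markers tested in ConA, 6 were called lower, among them Adgre1, Clec4f and Csf1r, and 1 higher, Itgam, against 17.3% and 16.8% of all genes. The 10 listed summed to 74.0 to 147 CPM in ConA mice and to 318 and 338 in the CIV mice, and their part in the Saa3 result was not tested.

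ANIT mice had 182, 11.0, 21.6 and 26.3 CPM of Saa3. The 3 ANIT mice with the most Saa1 thus had Saa3 inside the vehicle range, and the mouse with the least Saa1 had the most Saa3. Saa3 was not called in ANIT at 1.14 (SE 0.61, adjusted p = 0.177), and the estimate was -0.47 without mouse 1. Without Ctrl mouse 18 it was 1.54 and called (SE 0.51, adjusted p = 0.0347), so that all 10 genes were then called in ANIT. In a fit with a term for mice numbered 1 to 4 it was 2.30 and called (SE 0.78, adjusted p = 0.0471). In APAP the 6 values were 15.2 to 33.3 CPM in 5 mice and 1012 in mouse 1. The APAP call of 2.86 (SE 0.74, adjusted p = 0.00578) therefore rested on that mouse, and the log2 fold change was -0.06 without it.

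MDA livers held 8.68 to 218 CPM of Saa3 with a median of 146, and 4 of 7 mice were above all gavage vehicle mice. The log2 fold change was 2.25 (SE 0.48, adjusted p = 0.00104). CCl4 mice ran from 32.6 to 134 CPM with a median of 60.4, against 23.8 and 21.7 CPM in the CIP mice. That rise of 1.61 (SE 0.50, adjusted p = 0.0332) was called in 5 of 9 fits with 1 mouse left out. Saa3 differed between ConA and ANIT by -6.06 for ANIT over ConA (SE 1.07, called in the joint fit of all 57 samples), whereas Saa1 differed by -1.34 (SE 0.83, not called).

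**Figure D2:**
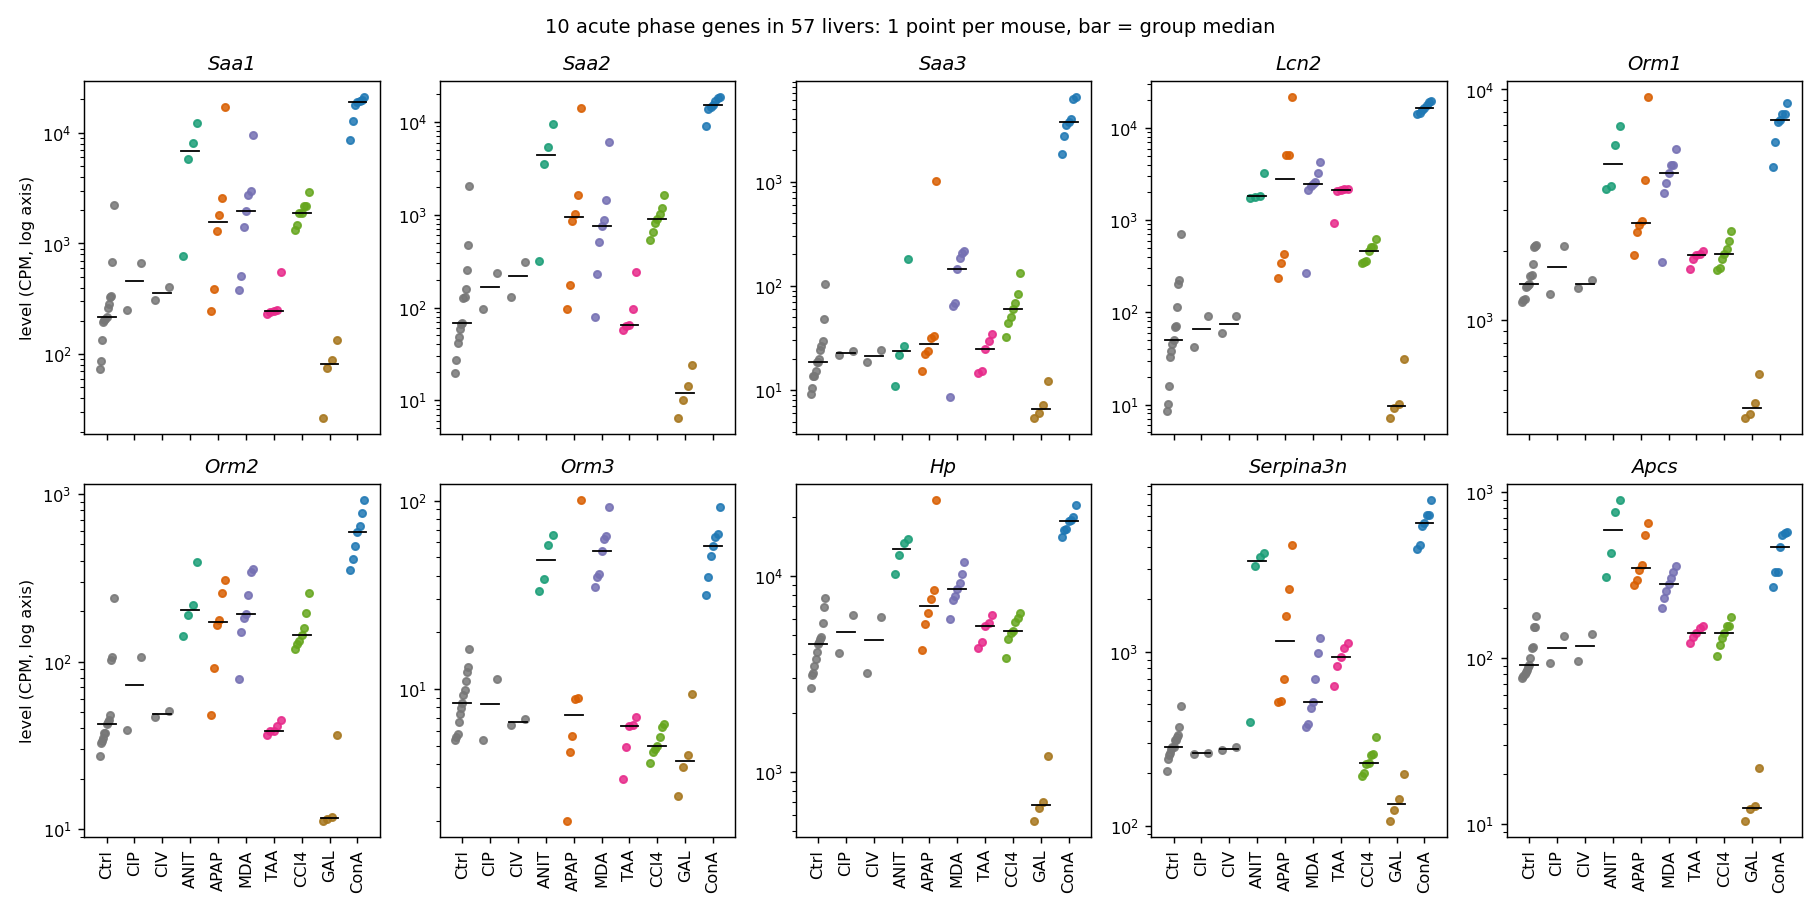
CPM of each acute phase gene (log axis) in every mouse, by group, with black bars at the group medians; CIP and CIV hold 2 mice each. The ConA points sit above all vehicle points in all 10 panels, whereas the TAA points leave the vehicle range only for Lcn2, Serpina3n and, downward in 2 of 5 mice, Orm3.

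Lcn2 encodes lipocalin 2, which binds bacterial siderophores and is made by stressed hepatocytes as well as being stored in neutrophil granules. It was called higher in 6 of the 7 agents and lower in GAL. Gavage vehicle mice had 8.58 to 712 CPM with a median of 49.9. CIP mice had 41.6 and 91.7 CPM, and CIV mice 91.0 and 60.4 CPM. ConA mice had 14239 to 19586 CPM with a median of 16564, a coefficient of variation of 12.7%. The log2 fold change was 7.84 (SE 0.41, adjusted p = 6.79e-06).

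ANIT mice had 1797, 1756, 3290 and 1830 CPM of Lcn2, all above every vehicle mouse. This was a log2 rise of 4.14 (SE 0.79, adjusted p = 0.000834). MDA mice had 265 to 4275 CPM with a median of 2469, and 6 of 7 were above every gavage vehicle mouse. The MDA rise was 4.34 (SE 0.72, adjusted p = 8.9e-05). TAA mice had 937, 2156, 2203, 2058 and 2125 CPM, again all above the vehicle range, a rise of 3.99 (SE 0.74, adjusted p = 0.000168).

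CCl4 mice had 340 to 628 CPM of Lcn2 with a median of 468. All 7 lay above both CIP mice and below Ctrl mouse 18. The rise was 2.81 (SE 0.38, adjusted p = 0.000499). In GAL mice Lcn2 was 31.3, 7.15, 10.3 and 9.25 CPM, below both CIP mice but inside the range of the gavage vehicle mice in 3 of 4. The GAL decrease was -2.19 (SE 0.62, adjusted p = 0.0407) and was called in 1 of 6 fits that left out 1 mouse.

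In TAA livers Lcn2 thus rose while Saa1, Saa2 and Saa3 were not called. The Lcn2 level was 0.209 of the Saa1 level at the median of the gavage vehicle mice, and 0.926 at the median of ConA. At the TAA median it was 8.78 times the Saa1 level, with a range from 1.71 to 9.29 over the 5 mice. Compared directly with MDA in the joint fit, TAA was not told apart in Lcn2 (0.38 for MDA over TAA, SE 0.77, not called) but was lower in Saa1 (3.21 for MDA over TAA, SE 0.83, called). The SE leaves room for a Lcn2 difference of either sign, so like levels are not shown. Against ANIT the same pair of values was 0.19 (SE 0.87, not called) for Lcn2 and 4.46 (SE 0.93, called) for Saa1, both ANIT over TAA.

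**Figure D3:**
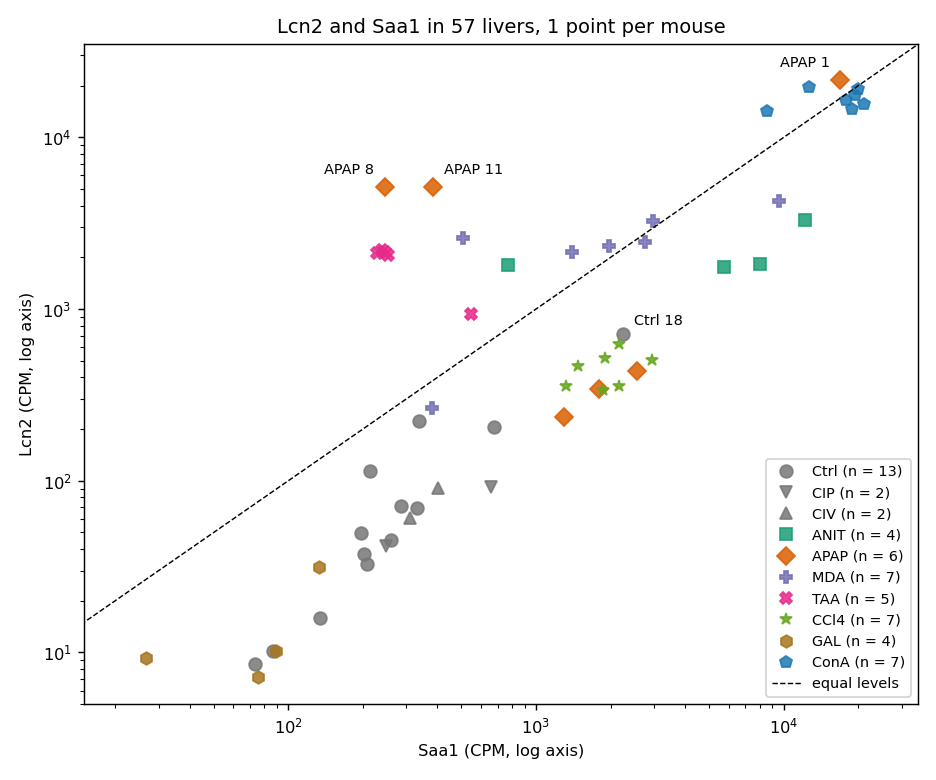
Lcn2 against Saa1 in CPM on log axes, 1 point per mouse, with a dashed line at equal levels. The 5 TAA mice and APAP mice 8 and 11 lie above the line at Saa1 values of the vehicle range, whereas CCl4 and APAP mice 2, 4 and 6 lie below it.

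The orosomucoids, also called alpha-1 acid glycoproteins, bind drugs and lipids in plasma. Orm1 made up 96.5% of the summed level of the 3 genes at the median of the gavage vehicle mice and 91.4% in ConA. Orm1 ran from 1205 to 2123 CPM in the gavage vehicle mice, with a median of 1433. In ConA it was 4631 to 8734 CPM with a median of 7358, a rise of 2.35 (SE 0.30, adjusted p = 0.000359). ANIT mice had 3689, 3808, 5734 and 6979 CPM, all above every vehicle mouse, a rise of 1.68 (SE 0.17, adjusted p = 3.21e-06).

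Orm1 rose in MDA by 1.38 (SE 0.17, adjusted p = 2.98e-06) and in APAP by 1.32 (SE 0.25, adjusted p = 0.000467). The MDA mice had 1790 to 5519 CPM with a median of 4337, and the APAP mice 1920 to 9269 with a median of 2649. Neither TAA (0.30, SE 0.15, adjusted p = 0.0939) nor CCl4 (0.25, SE 0.20, adjusted p = 0.373) was called. GAL mice had 586, 393, 439 and 377 CPM, against 1295 and 2103 in the CIP mice. Orm1 therefore fell by 1.91 in GAL (SE 0.24, adjusted p = 0.00378), below all 17 vehicle mice in each of the 4.

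Orm2 and Orm3, whose windows are 85.9% identical, had estimates of opposite sign under CCl4. Orm2 in CCl4 mice was 118 to 258 CPM with a median of 145, against 39.0 and 106 in the CIP mice. Orm3 in the same livers was 4.02 to 6.55 CPM with a median of 4.98, against 5.34 and 11.3. Orm2 was higher by 1.20 (SE 0.41, adjusted p = 0.0497), a call kept in only 2 of 9 fits that left out 1 mouse, while Orm3 was not called at -0.61 (SE 0.28, adjusted p = 0.121). Against all 17 vehicle mice the values were 1.34 (SE 0.33, adjusted p = 0.00124) for Orm2 and -0.76 (SE 0.20, adjusted p = 0.00273) for Orm3, the latter not called under library total scaling or with the replicate block.

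In ANIT, MDA and ConA both genes rose. Orm3 in the gavage vehicle mice was 5.36 to 16.3 CPM with a median of 8.46. ANIT mice had 33.2, 65.5, 38.2 and 58.3 CPM and MDA mice 34.8 to 92.7 with a median of 54.0. All ANIT and MDA mice were above all vehicle mice, with log2 fold changes of 2.41 (SE 0.24, adjusted p = 2.5e-06) and 2.60 (SE 0.22, adjusted p = 2.87e-08). ConA mice had 31.6 to 92.4 CPM with a median of 57.8, a rise of 3.14 (SE 0.43, adjusted p = 0.000466).

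For Orm3, the MDA and ConA values overlapped widely, with -0.04 for MDA over ConA (SE 0.43, not called in the joint fit), although Orm2 was lower in MDA by 1.42 (SE 0.40, called). The difference from CCl4 was 3.40 for MDA (SE 0.48) and 3.20 for ANIT (SE 0.51), both called. In TAA, Orm3 was 7.07, 3.33, 4.89, 6.41 and 6.33 CPM and was called lower at -0.66 (SE 0.26, adjusted p = 0.0391). That call remained in 12 of 18 fits with 1 mouse left out. Without Ctrl mouse 18 it was lost (-0.56, SE 0.23, adjusted p = 0.0526), while Orm1 (0.34, SE 0.14, adjusted p = 0.0476) and Apcs (0.53, SE 0.17, adjusted p = 0.0134) were called higher. Orm2 in TAA was 36.5 to 44.9 CPM with a median of 38.6, inside the range of 27.3 to 240 CPM of the gavage vehicle mice, and was not called.

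Orm2 had a gavage vehicle median of 42.4 CPM. ConA mice reached 350 to 917 CPM with a median of 594, a rise of 3.67 (SE 0.45, adjusted p = 0.00028). ANIT mice had 142, 189, 216 and 392 CPM, and the rise was 1.88 (SE 0.46, adjusted p = 0.00537). MDA mice had 78.7 to 356 with a median of 191, a rise of 1.80 (SE 0.39, adjusted p = 0.0012). Only 1 ANIT mouse and 3 MDA mice passed Ctrl mouse 18, at 240 CPM. GAL mice had 36.5, 11.1, 11.4 and 11.8 CPM, all below both CIP mice.

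Haptoglobin, the product of Hp, captures free haemoglobin. Gavage vehicle mice had 2678 to 7757 CPM with a median of 4488, and the CIV mice 6207 and 3197. ConA mice had 15910 to 23087 CPM with a median of 19181, a rise of 2.04 (SE 0.32, adjusted p = 0.00113). ANIT mice had 10283, 12769, 15488 and 14756 CPM, all above every vehicle mouse, and rose by 1.54 (SE 0.22, adjusted p = 6.23e-05).

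MDA raised Hp by 0.94 (SE 0.19, adjusted p = 0.000627), with 6044 to 11761 CPM and a median of 8560. APAP raised it by 1.09 (SE 0.29, adjusted p = 0.00743), and by 0.54 without mouse 1, where it was not called. TAA and CCl4 had medians of 5532 and 5264 CPM and neither was called. GAL mice held 1204, 650, 559 and 703 CPM against 4034 and 6350 in the CIP mice, below all 17 vehicle mice. This decrease of -2.73 (SE 0.32, adjusted p = 0.00326) was called in all 6 fits that left out 1 mouse.

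Serpina3n encodes a serine protease inhibitor related to human alpha-1 antichymotrypsin. It was 205 to 490 CPM in the gavage vehicle mice, with a median of 285, and 283 and 272 CPM in the CIV mice. ConA mice had 3909 to 7402 CPM with a median of 5468, a rise of 4.35 (SE 0.38, adjusted p = 4.91e-05). The ANIT mice had 396, 3111, 3709 and 3483 CPM. ANIT mouse 1 again lay within the vehicle range, and the rise was 3.14 (SE 0.30, adjusted p = 1.99e-06).

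TAA mice had 635, 827, 1048, 927 and 1125 CPM of Serpina3n, all above every vehicle mouse. The rise of 1.64 (SE 0.15, adjusted p = 5.26e-08) was called in all 18 fits that left out 1 mouse. All 6 APAP mice, at 513 to 4102 CPM with a median of 1147, were also above every vehicle mouse, and rose by 2.47 (SE 0.32, adjusted p = 1.4e-05). MDA mice had 368 to 1190 CPM with a median of 517, a rise of 1.13 (SE 0.20, adjusted p = 0.000217). CCl4 mice, at 192 to 321 CPM with a median of 228, were not called at -0.08 (SE 0.18, adjusted p = 0.752).

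The agents were also set against each other in the joint fit, the source of every direct difference between agents given here. On simulated data that fit made false calls above its nominal rate, so its calls are less strict than their threshold. ConA exceeded TAA, CCl4 and GAL in all 10 genes (27.2%, 49.4% and 44.1% of all genes called in either direction), MDA in 9 (46.5%), APAP in 8 (39.7%) and ANIT in 4 (40.6%). ANIT, APAP and MDA each exceeded GAL in all 10 (35.9%, 30.4% and 38.5%), TAA in 8 (23.8%, 9.65% and 26.2%) and CCl4 in 6 (26.1%, 22.4% and 30.5%). TAA exceeded GAL in 5 (26.2%). The APAP pairs include mouse 1, at 1012 CPM of Saa3 and 100.4 CPM of Orm3. The other APAP mice had 15.2 to 33.3 CPM of Saa3 and 1.98 to 8.91 CPM of Orm3. TAA mice had 14.6 to 34.8 CPM of Saa3 and 3.33 to 7.07 CPM of Orm3, and CCl4 mice 4.02 to 6.55 CPM of Orm3. The pairs were not fitted again without that APAP mouse. ANIT and APAP differed in 0 of the 10 genes (16.9%), where 2 had an unadjusted p under 0.05 in edgeR, and APAP and MDA differed in 2 (16.5%), Serpina3n higher and Orm3 lower in APAP. With scaling by library total, 124 of these called differences over all pairs were kept, 21 were lost and 4 were gained. ConA then exceeded MDA in 7 genes (49.8% of all genes called in either direction), APAP in 5 (52.8%), ANIT in 2 (39.6%) and CCl4 in 9 (65.2%). ANIT, APAP and MDA then exceeded CCl4 in 4 (44.1%), 4 (23.6%) and 3 (42.4%). The ConA counts over APAP and ANIT and the ANIT and MDA counts over CCl4 lie near or below those shares.

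With TMM scaling Serpina3n separated pairs of agents most often, with a called difference in 17 of the 21 pairs, against 12 pairs for Saa3. By library total its difference between ANIT and ConA was not called (-0.70, adjusted p = 0.164), and it was then level with Apcs. ANIT and MDA differed in only 2 of the 10 genes, Serpina3n (2.02 for ANIT over MDA, SE 0.37) and Apcs (1.09, SE 0.25), and 0.24% of all genes were called in that pair. The Apcs call of that pair was lost under library total scaling (0.96, adjusted p = 0.191). TAA exceeded CCl4 by 1.92 in Serpina3n (SE 0.36) and by 2.06 in Lcn2 (SE 0.76). In the same pair TAA was lower in Saa1 by 2.71 (SE 0.81), in Saa2 by 3.20 (SE 1.05) and in Orm2 by 2.02 (SE 0.46). All 5 differences were called, as were 26.3% of all genes. By library total the Lcn2 difference was 1.64 and not called (adjusted p = 0.0882), and Saa3 was called lower in TAA (-2.03, adjusted p = 0.0334). Gavage and injected agents also differ in route and control vehicle, which cannot be told apart from the agents in these pairs.

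Apcs encodes serum amyloid P component, a pentraxin and the main acute phase pentraxin of the mouse. The gavage vehicle mice had 76.0 to 181 CPM with a median of 91.7. ANIT mice had 311, 432, 759 and 896 CPM, APAP mice 276 to 649 with a median of 352, and MDA mice 200 to 360 with a median of 280. Every mouse of the 3 groups was above every vehicle mouse. The rises were 2.47 (SE 0.24, adjusted p = 1.99e-06), 1.98 (SE 0.21, adjusted p = 1.38e-06) and 1.38 (SE 0.17, adjusted p = 3.2e-06). The ANIT median for Apcs, 595 CPM, was above the ConA median of 465.8.

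ConA mice had 269 to 578 CPM of Apcs and CIV mice 96.2 and 140, a rise of 1.96 (SE 0.37, adjusted p = 0.00282). ConA and ANIT were not told apart in Apcs (0.44 for ANIT over ConA, SE 0.25, not called), but under library total scaling Apcs was called higher in ANIT (0.80, SE 0.26, adjusted p = 0.012). Under that scaling it was also called higher in APAP than in ConA (0.63, SE 0.23, adjusted p = 0.0209), from -0.09 with TMM. TAA mice had 135, 156, 152, 123 and 141 CPM, inside the vehicle range, and were not called at 0.44 (SE 0.19, adjusted p = 0.063). In GAL, Apcs was 21.8, 12.3, 10.4 and 12.9 CPM against 93.2 and 136 in the CIP mice. The GAL decrease of -2.99 (SE 0.30, adjusted p = 0.00246) put all 4 mice below all 17 vehicle mice.

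The mice of 1 agent did not move together in APAP. Mouse 1 had 16956 CPM of Saa1, 14118 of Saa2, 21689 of Lcn2, 24379 of Hp and 4102 of Serpina3n, of which Lcn2 and Hp were above the highest ConA mouse and the other 3 within the ConA range. Mice 2, 4 and 6 had 2558, 1797 and 1302 CPM of Saa1 and 433, 343 and 236 CPM of Lcn2. Mice 8 and 11 showed the reverse, with 245 and 385 CPM of Saa1 but 5158 and 5157 CPM of Lcn2. Serpina3n was also higher in mice 8 and 11, at 1595 and 2301 CPM, than in mice 2, 4 and 6, at 524, 698 and 513 CPM. In the ratio of Lcn2 to Saa1 the group spanned 0.169 to 21.1.

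Leaving out APAP mouse 1 kept 5 of the 9 APAP calls, those of Lcn2 (4.26), Orm1 (0.83), Orm2 (1.23), Serpina3n (1.94) and Apcs (1.87). Saa1 was then at 1.66 and Saa2 at 1.52, neither called. Orm3 was not called with all 6 mice (1.29, SE 0.55, adjusted p = 0.0809), and was at -0.57 without mouse 1. In the joint fit, which includes mouse 1, Orm3 was called (1.23, adjusted p = 0.0139). The genes called with every mouse left out in turn, in all 19 fits, were those same 5. The summed level of 8 neutrophil marker genes was 207 and 273 CPM in APAP mice 8 and 11, 44.5 in mouse 1 and 13.8 to 21.8 in the other 3, and its part in the Lcn2 levels was not tested.

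**Figure D4:**
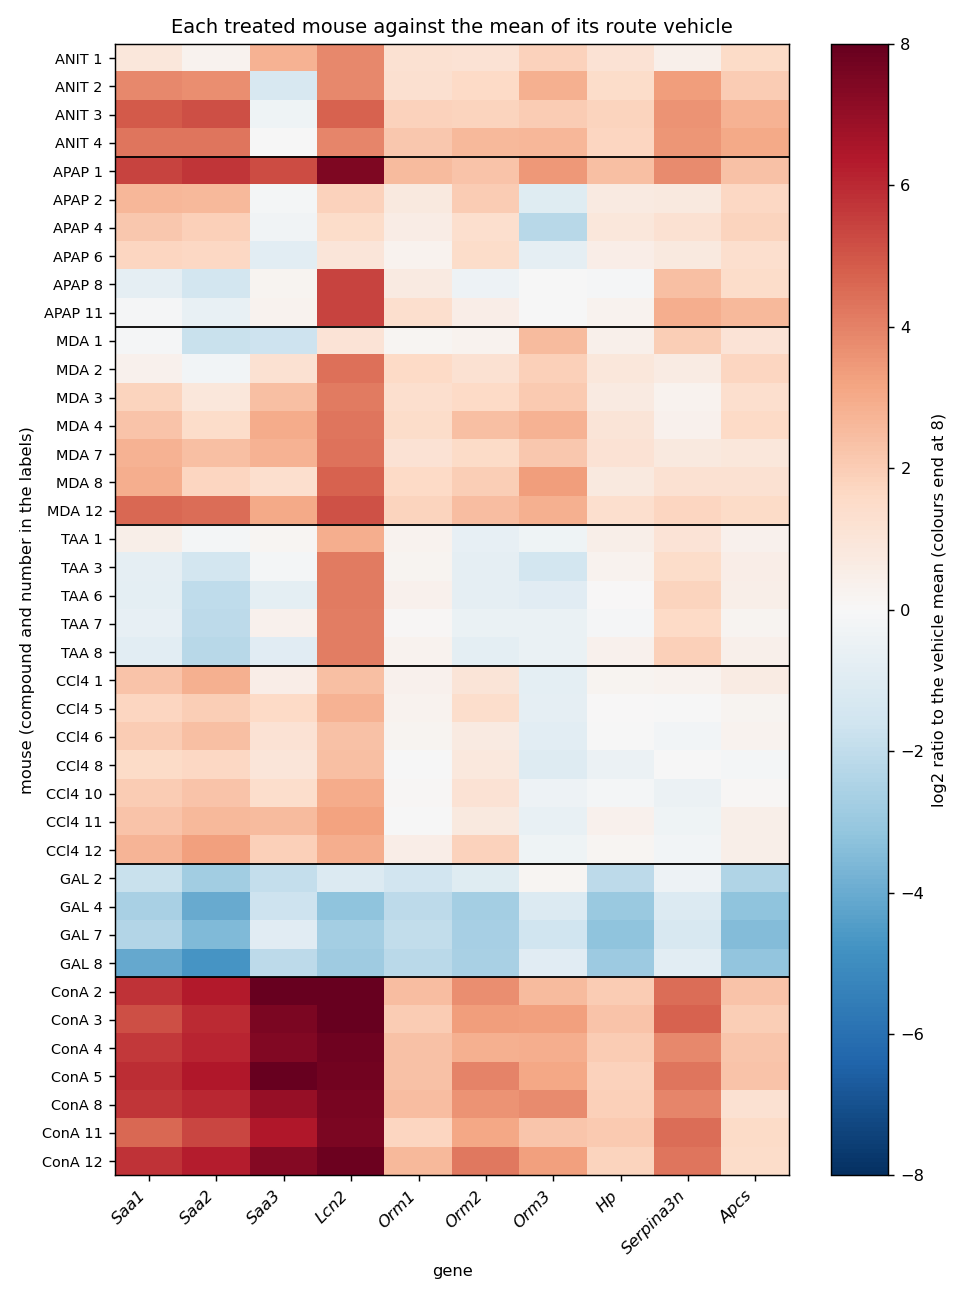
Log2 ratio of each treated mouse (rows) to the mean of its route vehicle group for each acute phase gene (columns). APAP mice 8 and 11 are red for Lcn2 and Serpina3n but pale for Saa1, at -0.72 and -0.07, and the GAL rows are blue apart from Orm3 in mouse 2.

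Galactosamine was the only agent with lower levels across the genes. All 4 mice were below both CIP mice in 9 of the 10 genes, as were 25.5% of all genes tested, a high share because only 2 controls were compared. The share of all estimated counts held by the 10 genes was 0.217% at the GAL median, against 0.684% in the gavage vehicle mice and 5.09% in ConA. A set of 6 hepatocyte markers also summed to less in GAL, 17726 to 25903 CPM against 36572 and 43575 in the CIP mice. In bulk tissue, fewer hepatocytes and less of these RNAs per hepatocyte cannot be told apart, and the part of the markers in the result was not tested. In CCl4 the same markers summed to 11988 to 22919 CPM, lower than in GAL at the median, and 5 of the 10 acute phase genes were called higher. These sums are on the TMM scale, and the set holds Alb and Ttr, also listed as negative acute phase genes. By library total Alb was at -0.04 and Hnf4a at 0.04 in GAL, neither called, and Ttr at -1.07, called. In CCl4 Alb (-0.69) and Ttr (-1.01) were called by that scaling and Hnf4a (-0.29) was not. The part of hepatocyte number in either agent was not tested.

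The direct difference between CCl4 and GAL was called for 8 of the 10 genes, all higher in CCl4, against 28.6% of all genes. It reached 6.13 for Saa2 (SE 1.36) and 4.97 for Lcn2 (SE 1.06), and was not called for Orm3 (0.04, SE 0.52) or Serpina3n (0.75, SE 0.39). The scale of the GAL result depends on the normalisation. Scaling by library total moved the median of all genes in GAL from 0.08 to 0.84, and the GAL calls then numbered 4, for Saa2 (-2.76), Orm1 (-1.12), Hp (-1.92) and Apcs (-2.19). Of all 15509 genes tested, 844 were then called lower in GAL. Serpina3n was at -0.09 and Orm3 at 0.14 under that scaling. In CCl4 that scaling moved the median of all genes from 0.10 to 0.53, and 8 genes were called, all higher, with Orm1 (0.71), Hp (0.53) and Apcs (0.78) added to the 5. Of all 15365 genes tested, 4565 were then called higher in CCl4. In ConA that scaling moved the median from 0.03 to -0.56, and all 10 calls were kept, beside 1101 of all 14132 genes called higher.

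Neutrophil markers moved beside Lcn2 in some agents. The 8 genes (S100a8, S100a9, Ly6g, Retnlg, Cxcr2, Csf3r, Mmp8, Mmp9) summed to a median of 6.06 CPM in the gavage vehicle mice, with a range from 3.17 to 69.4. In TAA the sum was 163 to 848 CPM and all 8 were called higher, against 26.4% of all genes. In ConA it was 130 to 292 CPM, with 4 of the 6 tested called higher, against 16.8%. In CCl4 it was 11.0 to 75.5 CPM against 5.59 and 5.77 in the CIP mice, with 4 of 7 called higher (18%). In APAP 3 of 5 were called higher (17.3%), in MDA 2 of 5 (17.4%) and in ANIT 1 of 5 (14%). In GAL it was 27.5 to 42.3 CPM, with 5 of 6 called higher against CIP (12.8% of all genes) and Lcn2 lower. Against all 17 vehicle mice 1 of the 6, Retnlg, was called higher in GAL, below the 25.1% of all genes. A set of 5 genes of granule proteins made in bone marrow summed to 1.49 to 7.77 CPM in TAA mice, above the 0.0245 to 1.18 CPM of the gavage vehicle mice. In ConA mice the set summed to 22.3 to 53.5 CPM, against 0.139 and 0.646 CPM in the CIV mice. Of the set, 2 of 2 tested were called higher in TAA (Ngp and Ltf) and 4 of 4 in ConA, against the same 26.4% and 16.8%. The part of these cells in the Lcn2 results was not tested.

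The vehicle mice themselves varied in these genes. Ctrl mice 1 to 4 were all below the other 9 gavage vehicle mice in Saa2, at 19.9 to 48.6 CPM against 58.1 to 2039. The same held for Lcn2, at 8.58 to 32.9 CPM against 37.6 to 712. Neither was called in edgeR, with differences of -3.44 (SE 1.07, adjusted p = 0.127) and -3.33 (SE 0.89, adjusted p = 0.0711). In that comparison 0 of the 10 genes were called and 6 had an unadjusted p under 0.05, while 2.33% of all genes were called. How many of all genes parted these mice without overlap was not counted, and the number ranges were picked once the values were known. Scaled by library total, 3 of the 10 were called lower in mice 1 to 4, beside 5.57% of all genes. Orm1 differed by 0.07 (SE 0.18, adjusted p = 0.909) with TMM. The same 4 mice stood apart in markers of cell types: 10 macrophage and monocyte genes summed to 188 to 230 CPM against 293 to 506 in the other 9, and 6 hepatocyte genes to 58057 to 85564 against 35176 to 56732 CPM. The part of these differences in the values was not tested.

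Within these number ranges, which were picked once the values were known, the TAA result was not uniform. TAA mice 1 and 3 against Ctrl mice 1 to 4 gave 6 calls, all higher, among them Saa1 at 1.70 and Saa2 at 2.34, against 11.2% of all genes called higher in that fit. TAA mice 6, 7 and 8 against the other 9 gave -1.10 for Saa1 and -2.56 for Saa2, neither called. Lcn2 was called in both, at 6.56 and 3.69, and so was Serpina3n, at 1.54 and 1.72. For APAP the lower range held mice 1, 2 and 4 and gave 7.41 for Saa2 and 8.86 for Lcn2. Mouse 1 had 14118 CPM of Saa2 and 21689 of Lcn2, where no other APAP mouse passed 1639 and 5158. The upper range held 3 mice and gave 0.05 and 4.41. In the lower range 6 of the 10 genes were called higher, beside 384 of all 13115 genes. In the upper range 4 were called higher, beside 10.3% of all genes. No difference between either saline group and the gavage vehicle mice was called in the 10 genes. Both edgeR comparisons gave 0 calls and 0 unadjusted p-values under 0.05, with 0.0131% and 0.0263% of all genes called. Log2 fold changes of the 10 genes ran from -0.89 to 0.17 for CIP and from -0.70 to 0.11 for CIV. With 2 mice in each saline group the tests could miss such differences, so likeness of the vehicle groups is not shown.

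Among the other genes of the pathway, the feedback inhibitor Socs3 was called higher in 6 of the 7 agents. Gavage vehicle mice had 1.99 to 28.9 CPM of Socs3 with a median of 4.00, and ConA mice 96.7 to 152 with a median of 135. The rise was 5.08 in ConA (SE 0.43), 3.72 in APAP (SE 0.67), 3.41 in ANIT (SE 0.54), 3.29 in TAA (SE 0.49), 2.66 in MDA (SE 0.51) and 1.89 in CCl4 (SE 0.56). In GAL it was 1.80 (SE 0.67) and not called, but under library total scaling it was 2.57 and called (adjusted p = 0.0203). The CCl4 call was lost without either CIP mouse. Socs3 was thus higher in TAA, where the serum amyloid A genes were not called.

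Ligands were low in whole liver. Il6, encoding interleukin 6, was tested only in ConA, where mice had 2.97 to 15.5 CPM against 0 and 0.188 in the CIV mice, and was called higher. Osm, encoding oncostatin M, was likewise tested only there and called higher, at 1.02 to 2.52 CPM. A single APAP mouse had 8.13 CPM of Il6. Of the ligands tested, 6 of 9 were called higher in ConA, 5 of 6 in TAA, 5 of 6 in APAP, 3 of 7 in GAL, 2 of 7 in CCl4, and 1 of 5 in ANIT and in MDA. The shares of all genes called higher were 16.8%, 26.4%, 17.3%, 12.8%, 18%, 14% and 17.4% in that order of agents, so the CCl4, ANIT and MDA counts lie near the background. Il1b, encoding interleukin 1 beta, was called higher in APAP (1.64, SE 0.55) and TAA (2.66, SE 0.52). In the APAP group mouse values ran from 1.11 to 28.2 CPM.

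Among 9 receptor genes, Osmr, the oncostatin M receptor, was called higher in every agent other than GAL, from 1.30 in CCl4 (SE 0.32) to 3.21 in ConA (SE 0.54). In GAL it was 2.30 and called under library total scaling (adjusted p = 0.0169), and it was also called higher there against all 17 vehicle mice. The CCl4 call was lost without either CIP mouse. Il6ra, the interleukin 6 receptor, rose in ANIT (0.88, SE 0.31) and MDA (0.79, SE 0.25) and fell in CCl4 (-1.01, SE 0.25), and all 3 calls were lost under library total scaling, at 0.64, 0.72 and -0.58. Il6st, encoding gp130, was not called in any agent against its route vehicle, but under library total scaling it was lower in ConA (-1.17, adjusted p = 0.0217). Il11ra1 was lower in all 7 agents. The leukaemia inhibitory factor receptor Lifr was lower in ANIT, APAP, MDA, CCl4 and GAL.

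Stat3 rose in ConA (2.12, SE 0.30), ANIT (1.35, SE 0.22), APAP (1.11, SE 0.31), TAA (0.77, SE 0.19) and MDA (0.67, SE 0.21), and was lower in GAL (-0.71, SE 0.19). Under library total scaling the GAL value was 0.07 and the MDA value 0.60, neither called, and without APAP mouse 1 the APAP value was 0.50 and not called. Cebpd, encoding C/EBP delta, was higher in every agent other than CCl4, including GAL (1.54, SE 0.44). Cebpb, encoding C/EBP beta, was called in ANIT (1.16, SE 0.30), TAA (0.72, SE 0.24) and ConA (1.85, SE 0.35), the ANIT call being lost under library total scaling (0.93, adjusted p = 0.0542). Hnf4a, a master regulator of hepatocyte identity, rose in ANIT (0.90, SE 0.12) and MDA (0.30, SE 0.09) and fell in TAA (-0.37, SE 0.15) and CCl4 (-0.72, SE 0.11). By library total the MDA (0.26) and CCl4 (-0.29) values were not called.

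**Figure D5:**
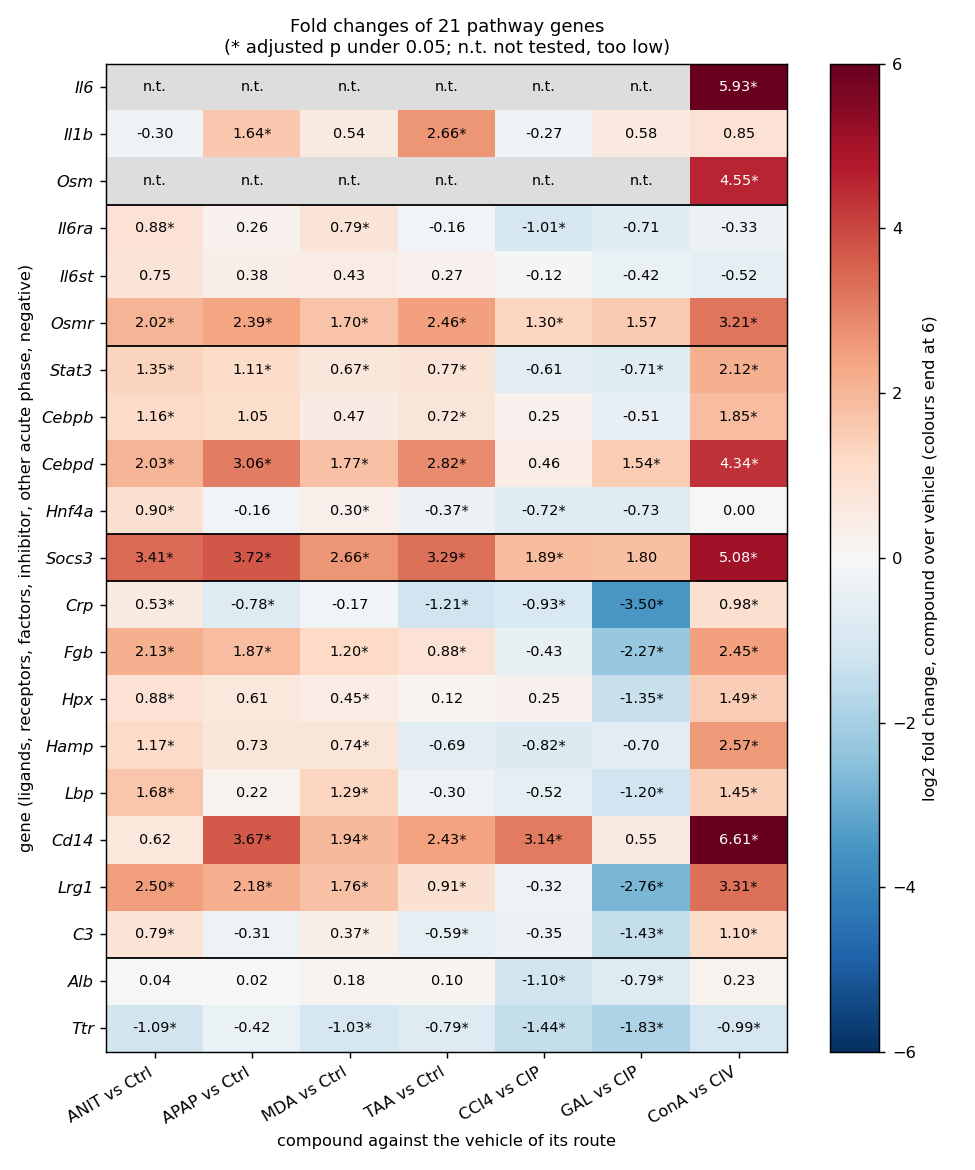
Log2 fold change of 21 pathway genes (rows, in order ligands, receptors, factors, inhibitor, other acute phase, negative acute phase) in each agent against its route vehicle, with an asterisk where the adjusted p was under 0.05 and grey where the gene was too low to test. Socs3 is positive in all 7 columns and unmarked only in GAL, and the fitted values of Il6 and Osm in ConA depend on the prior count because their controls were near 0.

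Of 18 other positive acute phase genes, 16 rose in ConA, 15 in ANIT, 13 in MDA and 10 in APAP, where 2 were lower. In TAA 8 rose and 6 fell, in CCl4 1 rose and 5 fell, and in GAL none rose and 15 fell. The shares of all genes called lower were 14.2% in ANIT, 14.6% in APAP, 16.4% in MDA, 24% in TAA, 15.6% in CCl4, 15.7% in GAL and 17.3% in ConA, beside the shares called higher given for the ligands. Against all 17 vehicle mice 2 of the list rose in CCl4 and 11 fell, with 26.2% and 27.2% of all genes called. The list medians were 1.51 in ConA, 1.19 in ANIT, 0.94 in MDA, 0.77 in APAP, 0.20 in TAA, -0.40 in CCl4 and -1.61 in GAL. Fgb, the fibrinogen beta chain, changed by 2.45 in ConA (SE 0.32), 2.13 in ANIT (SE 0.19), 1.87 in APAP (SE 0.18), 1.20 in MDA (SE 0.12), 0.88 in TAA (SE 0.14) and -2.27 in GAL (SE 0.27). In TAA the lower genes were Saa4, Crp, C3, C4b, Cfb and Itih4, and the higher ones included Fga, Fgb, Cd14 and Lrg1. These counts depend on the scaling: by library total, Hpx (-0.57) and Lbp (-0.44) were not called in GAL and Cd14 was called higher there (1.29, adjusted p = 0.0219). By that scaling Hpx (0.87), Lbp (0.80) and C3 (0.43) were not called in ConA and Hpx (0.41) was not called in MDA, while Hpx was called higher in APAP (0.61).

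Crp, the C-reactive protein gene, which in the mouse is a minor acute phase gene, was higher in ConA (0.98, SE 0.34) and ANIT (0.53, SE 0.17). It was lower in APAP (-0.78, SE 0.19), TAA (-1.21, SE 0.20), CCl4 (-0.93, SE 0.19) and GAL (-3.50, SE 0.66). By library total the ConA (0.38), ANIT (0.31), APAP (-0.57) and CCl4 (-0.51) values of Crp were not called. Hamp, encoding the iron hormone hepcidin, rose in ConA (2.57, SE 0.44), ANIT (1.17, SE 0.24) and MDA (0.74, SE 0.19) and was lower in CCl4 (-0.82, SE 0.20), a call lost by library total (-0.38). By that scaling Hamp was called lower in TAA (-0.79, adjusted p = 0.0177), which adds 1 to the lower genes there. Cd14, a receptor for bacterial lipopolysaccharide, was the largest called rise of the list in ConA (6.61, SE 0.53), APAP (3.67, SE 0.75), CCl4 (3.14, SE 0.27), TAA (2.43, SE 0.52) and MDA (1.94, SE 0.53). Without APAP mouse 1 the APAP value was 1.44 and not called. Against CIP, Cd14 was the only gene of the list called higher in CCl4, and against all 17 vehicle mice Fgl1 was called higher as well.

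Of 8 negative acute phase genes, whose products fall in plasma during inflammation, all 8 were lower in CCl4 and in GAL, and 2 were lower in each of the other 5 agents. In these 5, Rbp4 and Fetub were called higher in ANIT, Rbp4 in MDA and Apoa1 in APAP and TAA. The share of all genes called lower lay between 14.2% (ANIT) and 24% (TAA) in these 5, so 2 of 8 is near the background, and was 15.6% in CCl4 and 15.7% in GAL. Serpina6, encoding corticosteroid-binding globulin, was lower in all 7 agents, from -1.98 in CCl4 (SE 0.17) to -4.35 in GAL (SE 0.60). Ttr, encoding transthyretin, was lower in every agent other than APAP. Alb, encoding albumin, was lower only in CCl4 (-1.10, SE 0.22) and GAL (-0.79, SE 0.20). Under library total scaling Alb was at -0.69 in CCl4, still called, and at -0.04 in GAL, not called, while Serpina6 was at -1.55 and -3.54 and Ttr at -1.01 and -1.07, all 4 called.

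By likeness of log2(CPM + 1) over the 57 samples, among the 12371 genes whose mean reached 1 CPM, the gene outside the list most like Saa1, Saa2, Orm2 and Hp was Hpx, encoding haemopexin, with Pearson r of 0.90, 0.92, 0.86 and 0.94. Nos2 was most like Saa3 (0.92) and Mvp most like Lcn2 (0.91). Lrg1 was most like Orm1 (0.92), Serpina3m most like Serpina3n (0.94), Itih3 most like Apcs (0.94) and Gm27252 most like Orm3 (0.87). Inside the list Orm3 was the least alike of Saa1, Saa2, Lcn2 and Hp, at 0.69, 0.67, 0.68 and 0.71. The samples behind each r share groups, depth and total, and r is given as a description.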

How the data were processed

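Livers of 57 mice were measured by single-end RNA-seq of stranded mRNA libraries, per the labels' protocols. The authors deposited 1 table of estimated counts, with 54307 Ensembl IDs. The submitters' processing notes name Salmon 1.6.0, R 4.1.3 and build GRCm39, without their roles. Symbols came from GENCODE M21 names, which matched 51482 IDs. Across 4458 genes with a single transcript, length and the lowest positive value were inversely ranked (rho -0.943), so the values look corrected for length, and counting intervals were not computed.

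Values were rounded to whole numbers and tested with edgeR 4.0.16 in R 4.3.3 (limma 3.58.1) on the groups compared, after TMM scaling and filterByExpr, by its two-sided quasi-likelihood test. Standard errors derive from the F statistic. The 21 pairs of agents came from 1 fit of all 57 samples. On simulated data that fit made false calls above its nominal rate. Genes were named by a fixed set of 21 pathway genes and, per pathway list, the called gene with the largest change. Other genes named within lists were chosen after their values were seen. Members, lists and motifs were chosen with earlier results of these data known. Alternatives included DESeq2 1.42.0, library total scaling, no filter and leaving out each mouse. Same-numbered mice were checked for pairing, and their deviations were not correlated above 0.1 in every pair, so the reported fits have no block, and the replicate block was an alternative.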

Additional observations from a re-analysis of the deposited data

Results flagged for a closer look

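In groups of 4 to 7 treated mice, 70 combinations of group and gene were examined for a mouse far from the others (Dixon's criterion), and 16 were flagged. Chance flags about 1 in 20 groups. APAP mouse 1 was the high outlier in 7 genes, with 16956 CPM of Saa1, 14118 of Saa2, 1012 of Saa3, 21689 of Lcn2, 9269 of Orm1, 100.4 of Orm3 and 24379 of Hp. MDA mouse 12 was high in Saa1 (9566 CPM) and Saa2 (6057 CPM). TAA mouse 1 was high in Saa1 (547.6 CPM) and Saa2 (243.3 CPM) and low in Lcn2 (937.4 CPM). ANIT mouse 1 was high in Saa3 (181.7 CPM) and ANIT mouse 3 in Lcn2 (3290 CPM). GAL mouse 2 was high in Lcn2 (31.34 CPM) and Orm2 (36.53 CPM). The flags within a mouse are not independent, since these genes move together.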

How the results depend on the processing

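Of 915 values of the 10 genes under alternatives other than leaving out a mouse, 817 kept their direction and side of the threshold, 62 were no longer called, 15 became called, 7 reversed and 14 changed sign without being called. Among 980 values with 1 mouse left out, these numbers were 916, 44, 10, 1 and 9. The number of genes called, with 1 mouse left out, ranged from 9 to 10 in ANIT and in MDA, from 5 to 10 in APAP, from 2 to 4 in TAA, from 3 to 5 in CCl4 and from 4 to 9 in GAL, and stayed at 10 in ConA. The APAP count fell to 5 without APAP 1. It was 3 in CCl4 without CCl4 5 or CCl4 12, where Saa3 and Orm2 were lost. In GAL it was 4 without CIP 7, CIP 8 or GAL 4 and 5 without GAL 7 or GAL 8. Saa3 in APAP ranged from -0.06 to 3.25. With mice numbered above 4 only, chosen after seeing the data, APAP had 4 calls and Saa3 at -0.29. With mice numbered 1 to 4 only, TAA had 6 calls, with Saa1 at 1.70, Saa2 at 2.34 and Saa3 at 1.20. Under library total scaling the calls were 8 for CCl4 against CIP, 4 for GAL against CIP and against 17 vehicle mice, 3 for Ctrl 1 to 4 against the rest, 1 for ANIT against MDA and 3 for MDA against CCl4. Against 17 vehicle mice Serpina3n in CCl4 was then 0.19 and Orm3 in GAL 0.05, and against CIP Stat3 in GAL was 0.07. In 1 fit of all 57 samples, CCl4 had 0 calls against CIP and GAL 5. With the 3 Orm genes summed, TAA was at 0.27. The cause of these changes was not tested. Over all genes, library total scaling changed the calls, higher and lower, from 1965 and 2002 to 822 and 2651 in ANIT, from 2407 and 2029 to 2937 and 1113 in APAP, from 2759 and 2393 to 4565 and 1100 in CCl4, from 1981 and 2435 to 5515 and 844 in GAL and from 2381 and 2446 to 1101 and 3752 in ConA. Same-numbered mice share only a number. With the replicate block, APAP had 2 calls and CCl4 against 17 vehicle mice 5, and over all genes the calls went from 3967 to 962 in ANIT, from 4436 to 230 in APAP and from 4570 to 2600 in MDA. In that edgeR fit TAA gained calls of Hp (0.58, adjusted p = 0.0201) and Apcs (0.68, adjusted p = 0.0219) and lost Orm3 (adjusted p = 0.062). ANIT lost Serpina3n (adjusted p = 0.0647) and GAL against CIP lost Saa1 (adjusted p = 0.058). No paired analysis was possible for CCl4 or ConA against their route vehicle because these share 1 number. The 2 mice in each saline group limit the injected comparisons.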
